A study of Mus musculus with 20 samples.

Results

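Injured sensory ganglia of mice with a conditional deletion of the aryl hydrocarbon receptor gene Ahr were compared with injured ganglia of control mice. The comparison uses the ipsilateral libraries, from the side of the nerve lesion, and holds 10 of the 20 libraries of the series: 5 from conditional knockout mice (cKO) and 5 from controls. The members were chosen by their library names, and no measured value entered that choice.

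The tissue was the dorsal root ganglia (DRG) of lumbar levels 4 to 6, which hold the cell bodies of the sensory neurons that send axons into the sciatic nerve, together with satellite glia, Schwann cells, vessels and immune cells. All mice were male. The cKO genotype was Ahr fl/fl with Thy1CRE-ERT2/EYFP, a transgene in which the Thy1 promoter drives a tamoxifen-dependent Cre recombinase together with a yellow fluorescent protein, and the controls were Ahr f/f or f/+, with no Cre in their stated genotype. Which control carried 1 floxed allele and which carried 2 is not told per mouse, and the titles call the controls wild type. At the age of 17 weeks both groups received intraperitoneal tamoxifen (100 mg/kg) on each of 5 days. The sciatic nerve was cut 4 weeks later, and the ganglia were taken 1 day after the lesion, within hours 2 to 4 after lights on. The protocol describes this nerve lesion, while a label field names a spinal cord injury, and the protocol was followed here. The 5 libraries of a group came from 5 different mice, numbered H61, H64, H95, H99 and H100 for cKO and H62, H63, H65, H96 and H97 for control. The title of 1 library gives its mouse as H6, and H61 was taken from the library name. The ganglia of the other side of the same mice, 10 further libraries, entered the same fit and served to ask whether a genotype difference differed between sides and how genes responded to the lesion in control mice. Deletion with a Thy1-driven Cre concerns cells with an active Thy1 promoter, so the other cells of the ganglion keep their Ahr alleles, and RNA of all cells was measured together. In such whole tissue, fewer cells of a type and less RNA per cell cannot be told apart.

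The aryl hydrocarbon receptor is a transcription factor of the bHLH-PAS family that is held in the cytoplasm by HSP90 and co-chaperones until a ligand binds. Ligands include dioxins, polycyclic aromatic hydrocarbons and metabolites of tryptophan from the diet and gut microbes. The receptor then enters the nucleus, pairs with ARNT and binds the core sequence GCGTG, which switches on detoxifying enzymes such as the cytochromes P450 of the CYP1 family and its own repressor AHRR. Axotomy of a sensory neuron starts a separate programme, led by transcription factors such as ATF3, JUN and SOX11, that prepares the cell to regrow its axon. The title of the series states that it concerns a restraint of the receptor on axon regrowth in these neurons.

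Each ipsilateral library was deep, with 79.1 to 103 M exonic counts (M, mega) in control and 87.5 to 118.5 M in cKO mice. The cKO libraries were the larger on average, at 103 ± 12.9 M against 87.6 ± 9.18 M (SD, n = 5 per group, two-sided exact permutation p 0.0556). The mitochondrial share of the counts was 1.03% to 1.20% in control and 0.985% to 1.08% in cKO mice, of which H61, H64, H95 and H99 lay below every control, and the part of this in any result was not tested. Neuronal markers were abundant in every library, and their summed level was 14252 to 15815 CPM in control mice and 13746 to 14913 CPM in cKO ganglia (CPM, counts scaled to the size of the library). Control mice H65 and H96 stood apart in muscle transcripts: the 10 muscle markers summed to 821 CPM in H65 and 338 CPM in H96, against 12.2 to 44.0 CPM in the other 3 controls and 7.63 to 155 CPM in cKO mice. These same 2 mice lay highest on the first principal component of the 10 libraries, which held 37.5% of the variance and did not separate the genotypes. The spread among replicates exceeded counting error: for the 20 pairs of libraries within a group, chi-square divided by its degrees of freedom was 4.97 to 17.4, where counting error alone gives a value near 1.

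Over the whole transcriptome, the injured ganglia of the genotypes differed in 2 genes. Of 28564 genes tested, Thy1 was higher and Cadps was lower in cKO mice at an adjusted p under 0.05 (edgeR quasi-likelihood test with Benjamini-Hochberg adjustment), which is 0.00700% of the genes (0.00350% higher and 0.00350% lower). The next smallest adjusted p was 0.437, of Prr18. Without correction 674 genes (2.36%) had a p under 0.05, 338 higher (1.18%) and 336 lower (1.18%), where 1428 would be expected by chance alone. A fit of the 10 ipsilateral libraries alone gave 911 such genes (3.32% of 27431). The log2 fold changes of all tested genes, cKO minus control, were centred on 0, with a median of 0.000217, 50.1% of them positive and the middle 90 percent of them between -0.31 and 0.28.

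The small number of calls came with narrow intervals. Of the 13858 genes averaging 5 CPM or more, 97.3% had a 95% confidence interval lying inside a 1.5-fold change in either direction, and 99.1% inside a 2-fold change. The median standard error of their log2 fold changes was 0.0496. Over all tested genes, low ones included, those shares were 74.0% and 89.1%. The intervals of the remaining genes reached past those sizes of change.

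**Figure D1:**
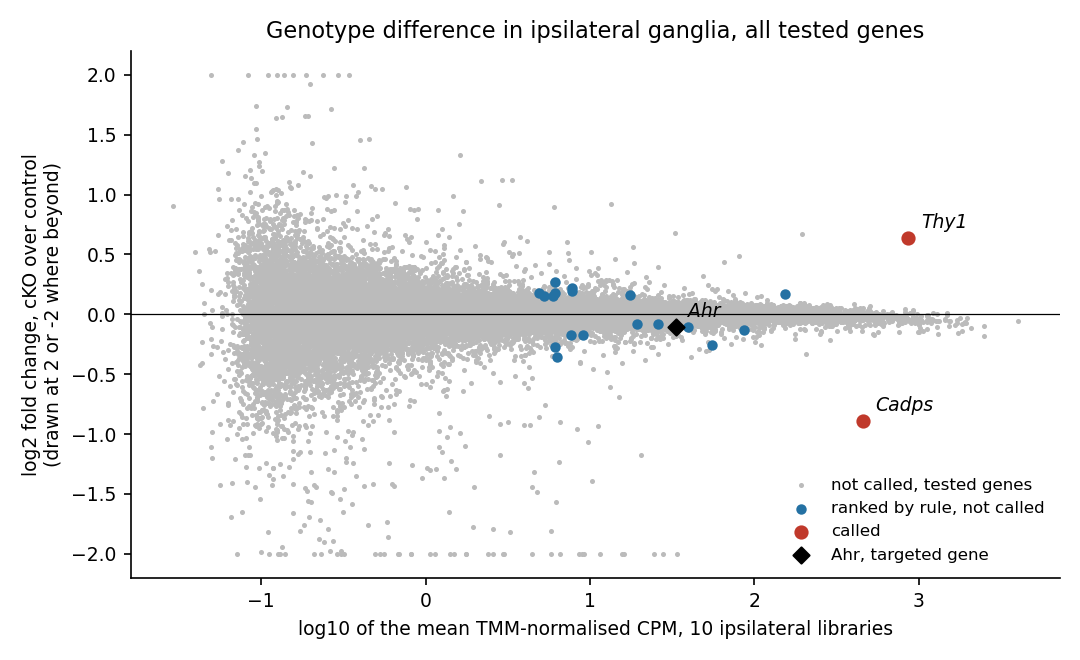
Log2 fold change between cKO and control injured ganglia (vertical axis, drawn between -2 and 2, with values beyond those limits placed at the edge) against mean expression in CPM (horizontal axis, log scale) for the 28564 tested genes. Thy1, at 0.63, and Cadps, at -0.89, are the called genes, and the abundant genes otherwise lie close to 0.

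Ahr, the targeted gene (ENSMUSG00000019256.18), was not distinguishable between the groups on the injured side. It had 34.1, 35.5, 30.2, 38.1 and 34.1 CPM in control mice H62, H63, H65, H96 and H97, and 31.5, 36.8, 31.5, 30.9 and 28.9 CPM in cKO mice H61, H64, H95, H99 and H100. The ranges overlapped: cKO mouse H64 exceeded 4 of the 5 controls, and control H65 lay below 4 of the 5 cKO mice. The means were 34.4 ± 2.86 and 31.9 ± 2.94 CPM (SD, n = 5), a log2 fold change of -0.11 (SE 0.0655) with a 95% interval of -0.24 to 0.03, that is, 0.845 to 1.02 of the control level. A 2-fold lower level of Ahr mRNA over the whole ganglion lies outside that interval. The two-sided exact permutation p was 0.222 (n = 5 per group), and the adjusted p of the edgeR fit was 1.00. Among mice numbered 61 to 65 the means were 33.2 CPM in 3 controls and 34.1 CPM in 2 cKO mice, and among mice numbered 95 to 100 they were 36.1 CPM in 2 controls and 30.4 CPM in 3 cKO mice, so the direction differed between the ranges of mouse numbers. Leaving out H65 gave -0.14 and leaving out H96 gave -0.07. The largest move came without cKO mouse H64, at -0.16 with an unadjusted p of 0.0168 (adjusted p 1.00, edgeR).

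On the uninjured side the Ahr level of every cKO library, at 19.5 to 20.99 CPM, lay below that of every control library, at 21.3 to 27.2 CPM. Of all tested genes 1.52% had ranges that did not overlap on that side. The log2 fold change of Ahr there was -0.25 with an unadjusted p of 0.00107 and an adjusted p of 0.103 in the edgeR fit, so it was not called. On that side 17.5% of the genes had an unadjusted p under 0.05. For Ahr the difference between the sides was 0.15 (p 0.134, adjusted p 0.600, edgeR), so the effect on Ahr was not shown to differ between sides. The counts were taken over the exons of the whole gene, and the floxed exon by itself was not analysed here. The extent of recombination in neurons therefore cannot be read from these values.

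Thy1 (ENSMUSG00000032011.6) encodes a small GPI-anchored protein of the immunoglobulin superfamily on the surface of neurons, T cells and fibroblasts. Its level was 672, 686, 699, 674 and 655 CPM in the control mice, in the mouse order given for Ahr, and 1100, 944, 995, 1100 and 1116 CPM in the cKO mice. Every cKO library exceeded every control library, and the gap between the highest control and the lowest cKO mouse was wider than the range of the controls. The means were 677 ± 16.3 and 1051 ± 76.7 CPM (SD, n = 5), a rise of 55.2%, with a log2 fold change of 0.63 (SE 0.0492, 95% interval 0.53 to 0.74) and an adjusted p of 4.65e-07 (edgeR). Within mice numbered 61 to 65 the means were 685.5 and 1022 CPM, and within 95 to 100 they were 664 and 1070 CPM. The fold change was 0.65 without H65 and 0.63 without H96, and it was called in all 17 alternatives other than an added 2-fold threshold, with the highest adjusted p at 2.73e-05.

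The summed markers of other cells that carry Thy1 overlapped between the groups. For lymphocytes they were 5.03 to 9.43 CPM (median 7.07) in control and 4.75 to 7.80 CPM (median 5.03) in cKO mice. For fibroblasts they were 927 to 1520 and 850 to 1560 CPM. The part of cell content in the Thy1 difference was not tested. The transgene of the cKO mice is itself built on the Thy1 promoter. All 5 cKO mice carried that transgene and the controls' stated genotype has none, so the loss of Ahr, the transgene and the site at which it inserted cannot be told apart in this comparison. The table counts reads per gene, and reads of the endogenous Thy1 gene were not separated from reads of any Thy1 sequence in the transgene.

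Cadps (ENSMUSG00000054423.16) encodes CAPS1, a protein that primes dense-core vesicles, the carriers of neuropeptides and neurotrophins, for release. It had 616, 620, 596, 568 and 575 CPM in control mice and 319, 330, 318, 315 and 320 CPM in cKO mice, again in the order given for Ahr. The groups did not overlap, and the 5 cKO mice lay closer to one another than the 5 controls did. The means were 595 ± 23.2 and 320 ± 5.77 CPM (SD, n = 5), a log2 fold change of -0.89 (SE 0.0505, 95% interval -0.998 to -0.787) and an adjusted p of 2.66e-09 (edgeR). In linear terms the cKO level was 0.539 of the control level, with an interval of 0.501 to 0.580. Means within mice numbered 61 to 65 were 610 CPM in control mice and 324 CPM in cKO mice, and within 95 to 100 they were 572 and 318 CPM. Leaving out H65 or H96 gave -0.89 and -0.91, and over the 17 alternatives without the 2-fold threshold the values lay between -0.91 and -0.87, called each time with an adjusted p of at most 1.19e-07. The summed neuronal markers overlapped between the groups only through control H97, at 14252 CPM. Controls H62, H63, H65 and H96, at 15177 to 15815 CPM, lay above every cKO mouse, at 13746 to 14913 CPM. The medians were 15398 and 14584 CPM, and the part of this in the Cadps difference was not tested.

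The 300 bases around the Cadps start (250 before it and 50 after it) are shown because Cadps was the called gene with the lower level in cKO mice, beside those of Cyp1b1 and Tiparp, well-known targets of the receptor whose levels are given below. Capitals mark GCGTG or, where the motif lies on the other strand, its reverse complement CACGC. Sequences are from RefSeq on the build GRCm38.p6, written 5′ to 3′ on the strand of the gene. Cadps lies on the minus strand at chr14:12823030-12823329, Cyp1b1 on the minus strand at chr17:79715012-79715311 and Tiparp on the plus strand at chr3:65528197-65528496. Thy1 was not matched in the promoter table.
Cadps: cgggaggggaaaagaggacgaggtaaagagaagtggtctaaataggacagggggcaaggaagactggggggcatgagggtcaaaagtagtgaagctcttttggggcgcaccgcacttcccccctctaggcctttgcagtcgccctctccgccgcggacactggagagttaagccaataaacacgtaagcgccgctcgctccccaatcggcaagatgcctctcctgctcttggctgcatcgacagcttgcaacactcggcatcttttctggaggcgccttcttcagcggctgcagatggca
Cyp1b1: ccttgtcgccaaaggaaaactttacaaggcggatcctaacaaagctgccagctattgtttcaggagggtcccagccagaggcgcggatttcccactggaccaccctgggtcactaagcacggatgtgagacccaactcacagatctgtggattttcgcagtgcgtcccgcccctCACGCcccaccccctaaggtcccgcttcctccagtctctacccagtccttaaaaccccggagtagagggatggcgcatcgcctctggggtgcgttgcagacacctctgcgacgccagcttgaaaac
Tiparp: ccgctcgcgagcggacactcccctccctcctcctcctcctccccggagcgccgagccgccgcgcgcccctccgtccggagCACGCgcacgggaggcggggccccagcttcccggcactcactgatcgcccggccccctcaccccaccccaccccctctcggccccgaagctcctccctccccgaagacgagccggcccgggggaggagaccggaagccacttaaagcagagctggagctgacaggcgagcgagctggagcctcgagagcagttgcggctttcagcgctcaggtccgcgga
The Cadps window holds no GCGTG on either strand, and each of the other windows shown holds 1. Among listed targets not shown, the window of Nqo1 holds none, that of Cyp1a1 holds 1 and that of Ahrr holds 3. Of all 32851 promoters in the table, 32.4% held the motif. It was present in 7 of the 11 promoters matched to the list of receptor targets (63.6%). A match of these letters is a description and does not show a binding site, and a window without it shows only that the letters are not in these 300 bases.

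The ratio of Thy1 CPM to Cadps CPM was 1.09 to 1.18 in the 5 control mice and 2.86 to 3.49 in the 5 cKO mice. That ratio needs no scaling between libraries, and since the genes were called in opposite directions with ranges that did not overlap, its separation restates those calls. On the uninjured side of the same mice the log2 fold changes were 0.77 for Thy1 and -1.01 for Cadps, with adjusted p of 1.386e-08 and 2.746e-10 (edgeR). The difference between sides was -0.13 for Thy1 (95% interval -0.28 to 0.01, p 0.0660, adjusted p 0.529) and 0.11 for Cadps (95% interval -0.03 to 0.26, p 0.121, adjusted p 0.587), so neither effect was shown to be particular to the injured ganglia.

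**Figure D2:**
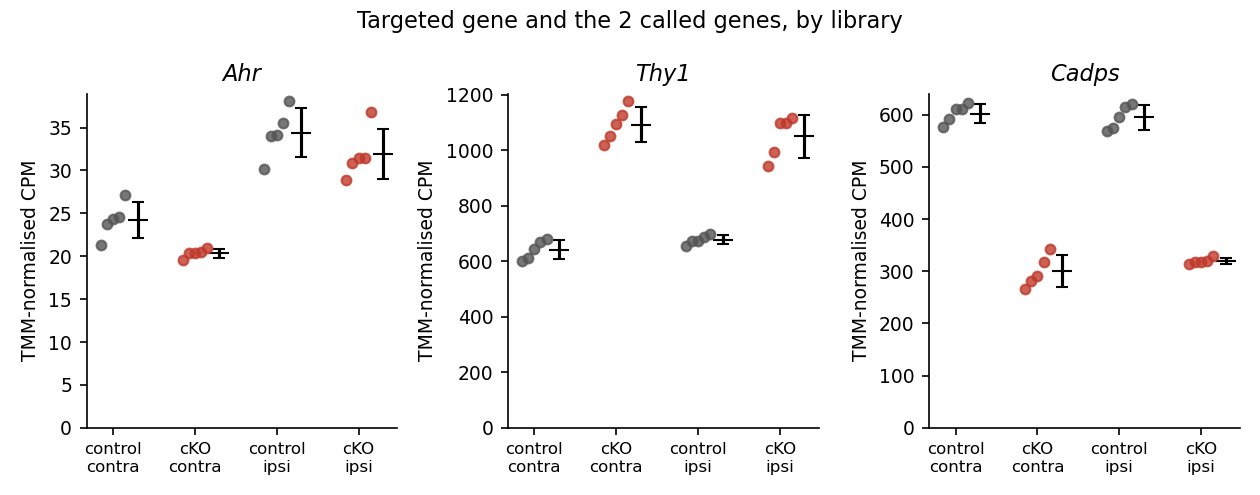
CPM of Ahr, Thy1 and Cadps in each library (points, 1 per mouse) with the mean and SD (bars) of each group of 5, on the uninjured (contra) and injured (ipsi) side. Points are sorted within a group. Ahr overlaps between genotypes at 28.9 to 38.1 CPM on the injured side, while Thy1 and Cadps do not overlap, at 655 to 699 against 944 to 1116 CPM and at 568 to 620 against 315 to 330 CPM.

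The genes next to Thy1, Cadps and Ahr on their chromosomes were read as well. The 4 tested genes on either side of each were taken by their order in GENCODE release M21, and none of the 16 neighbours of Thy1 and Cadps was called. Beside Cadps, Synpr, which encodes the synaptic vesicle protein synaptoporin, had 250 ± 16.9 CPM in control mice and 254 ± 15.8 CPM in cKO mice (SD, n = 5). The lowest unadjusted p among those 8 neighbours was 0.0298, of 3830406C13Rik, with a log2 fold change of 0.07. Beside Thy1, Nectin1, a cell adhesion gene, had 50.1 ± 1.55 and 50.9 ± 3.39 CPM, and the deubiquitinase gene Usp2 had 9.12 ± 1.60 and 9.18 ± 1.10 CPM. None of the 8 neighbours of Ahr was called either, Snx13 (100.7 and 101.5 CPM) and Hdac9 (55.7 and 57.0 CPM) among them.

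Cadps was then set beside 27 other genes of dense-core vesicle biology, its relative Cadps2, Munc13 priming factors, the release machinery, granins and prohormone convertases. None of the 27 was called, their log2 fold changes lay between -0.08 (Snap25) and 0.09 (Cadps2), and all 27 had 95% intervals inside 1.5-fold. The median of the 28 genes was 0.00057, with 14 members higher and 14 lower. Cadps2, the other vesicle-priming CAPS protein of the genome, had 49.7, 47.9, 51.5, 50.4 and 52.4 CPM in control mice and 52.9, 53.3, 54.2, 54.9 and 53.6 CPM in cKO mice. The ranges did not overlap, the gap was narrow, and 171 of all tested genes (0.599%) had ranges that did not overlap, and the log2 fold change of 0.09 (SE 0.0658) had a p of 0.167 and an adjusted p of 1.00 in the edgeR fit. Unc13a, which encodes Munc13-1, had 174.7 ± 6.46 and 174.4 ± 3.40 CPM (SD, n = 5). Syt4, a synaptotagmin of these vesicles, had 639 ± 18.3 and 637 ± 31.5 CPM, and Snap25, a SNARE of the fusion machinery, had 978.5 ± 37.0 and 928 ± 38.0 CPM.

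No gene for the cargo of these vesicles was called, beside 0.00700% of all tested genes. Vgf, a prohormone precursor that responds to injury and neurotrophins, had 405 to 441 CPM in control mice and 381 to 460 CPM in cKO mice, a log2 fold change of 0.02 (95% interval -0.10 to 0.13). Scg2, a granin, had 402 ± 14.4 and 398 ± 18.5 CPM, and Pcsk2, a prohormone convertase, had 263.6 ± 3.96 and 266.8 ± 8.73 CPM (SD, n = 5). Of 16 neuropeptide genes 8 were higher and 8 lower in cKO mice, from -0.36 (Pdyn) to 0.29 (Vip). The intervals of 10 of the 16 lay inside 1.5-fold, and those of Npy, Vip, Cck, Crh, Penk and Pdyn were wider. Calca, the precursor of CGRP, had 606 ± 37.7 and 571 ± 26.9 CPM, with the lowest p of that list at 0.0887. Gal, which encodes galanin, is described with the injury genes.

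Thy1 was likewise set beside 11 other genes of GPI-anchored or Ly6-related surface proteins. None of them was called, and their fold changes ran from -0.27 (Ly6c1) to 0.08 (Lypd6), with 9 of the 11 intervals inside 1.5-fold. Ly6c1, a Ly6 antigen of endothelium and monocytes, averaged 26.6 CPM in control mice with an SD of 0.840, and its p was 0.0570. Cntn1, a GPI-anchored axonal adhesion protein, had 433 ± 10.1 and 426 ± 19.5 CPM. Both comparison lists were assembled with the calls of Thy1 and Cadps known, so their counts describe the relatives and support nothing about those genes.

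The receptor pathway showed no called gene, where 0.00700% of all tested genes were called, so the absence says little about the pathway. The 12 genes of the receptor complex and its cofactors had fold changes from -0.11 (Ahr) to 0.06 (Sin3a), 4 higher and 8 lower, and the 95% intervals of all 12 lay inside 1.5-fold. Arnt, the dimer partner, had 23.1 ± 0.973 CPM in control mice and 23.2 ± 1.69 CPM in cKO mice (SD, n = 5). Hsp90ab1, the chaperone that keeps the receptor ready for ligand, had 1580 ± 76.8 and 1521 ± 65.3 CPM. Changes of 1.5-fold or more in these partners were therefore outside their intervals.

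Of 14 target genes of the receptor, 11 were expressed enough to be tested. In cKO mice 7 were higher and 4 lower, and none was called. The split depended on single mice, with 5 higher and 6 lower without cKO H64 and 10 and 1 without cKO H99. Cyp1a2, Gsta2 and Ido1 did not pass the filter on low counts. Cyp1b1, a cytochrome P450 of the CYP1 family, had 87.9, 90.6, 84.5, 83.8 and 91.2 CPM in control mice and 91.0, 98.6, 87.0, 85.6 and 95.9 CPM in cKO mice. The groups overlapped, and the log2 fold change was 0.06 (95% interval -0.11 to 0.24). Tiparp, an ADP-ribosyltransferase that limits the receptor, had 44.6 ± 1.70 and 44.5 ± 2.24 CPM, and Ahrr, the repressor, had 3.07 ± 0.373 and 3.07 ± 0.232 CPM (SD, n = 5). Nqo1, a quinone reductase also driven by NRF2, had 13.6 ± 0.851 and 14.1 ± 1.20 CPM.

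The classic target Cyp1a1 was close to the limit of what was tested, at 0.180 ± 0.0465 CPM in control mice and 0.198 ± 0.0958 CPM in cKO mice (SD, n = 5) and 10 to 28 counts per library. Its interval, from -0.52 to 0.74, was wider than 1.5-fold, as were those of Aldh3a1 and Gsta1. The lowest p of the targets was that of Ugt1a6b, a glucuronosyltransferase that shares exons with other members of its gene cluster, so that its counts are uncertain. It had 1.67 to 2.39 CPM in control mice and 1.64 to 1.80 CPM in cKO mice, a log2 fold change of -0.24 with a p of 0.0333 and an adjusted p of 1.00 in the edgeR fit.

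The injury genes were then compared. In control mice 26 of the 30 regeneration-associated genes were called higher on the lesioned than on the other side, with a median log2 fold change of 1.75. Of all tested genes 13.8% were called higher in that comparison. Between the genotypes on the injured side 0 of the 30 were called, beside 0.00700% of all tested genes. They had a median of 0.03, with 21 higher and 9 lower in cKO mice, and ranged from -0.08 (Fgf3) to 0.29 (Vip, a low gene at 0.142 and 0.173 CPM). Over all tested genes 50.1% were higher, the median was 0.000217, and leaving out cKO mouse H64 turned the median of the 30 genes to a value below 0 (-0.02). The intervals of 23 of the 30 lay inside 1.5-fold.

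Atf3, the transcription factor most widely used as a sign of axotomy, had 434, 438, 429, 426 and 405 CPM in the injured control ganglia and 434, 462, 439, 380 and 370 CPM in the injured cKO ganglia, in the mouse order given for Ahr. The ranges overlapped fully, and the cKO mice were spread more widely. The log2 fold change was -0.03 (95% interval -0.20 to 0.13). Jun, its partner in the AP-1 family, had 283 to 301 CPM in control mice and 272 to 309 CPM in cKO mice, a log2 fold change of -0.01 (95% interval -0.08 to 0.07). Sox11, a transcription factor of growing neurons, had 83.1 to 92.5 and 81.8 to 107 CPM, a log2 fold change of 0.04 (95% interval -0.09 to 0.18).

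Sprr1a, a small proline-rich protein strongly induced in axotomised neurons, had 23.7, 25.9, 28.1, 18.6 and 21.95 CPM in control mice and 31.8, 30.4, 26.5, 20.4 and 20.9 CPM in cKO mice. The cKO mice H61 and H64 exceeded all controls, the other 3 lay within the control range, and the log2 fold change of 0.14 had a wide interval of -0.42 to 0.69. Gal had 49.96 to 59.0 CPM in control mice and 46.5 to 63.5 CPM in cKO mice (0.07, 95% interval -0.31 to 0.46). Gap43, a growth cone protein, had 237 ± 8.05 and 236 ± 5.58 CPM (SD, n = 5), a log2 fold change of -0.01 (95% interval -0.09 to 0.08). The lowest p among the 30 genes was 0.0834, of Hspb1, a small heat shock protein that protects axotomised neurons, at 283.7 ± 10.8 and 271 ± 6.07 CPM.

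**Figure D3:**
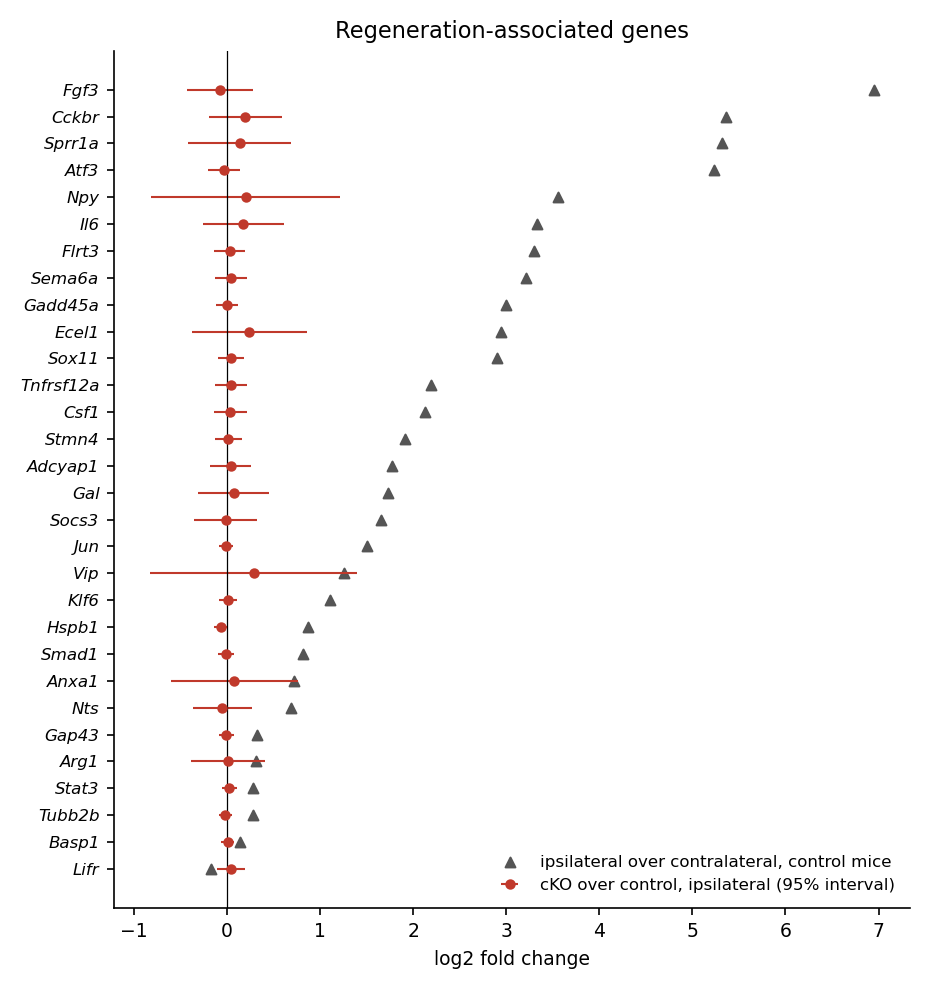
Log2 fold changes between cKO and control injured ganglia for the 30 regeneration-associated genes (circles) with their 95% confidence intervals (bars), beside the log2 fold changes between the sides of control mice (triangles). All 30 intervals include 0, and the 3 widest belong to Vip, Npy and Anxa1.

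Other stress programmes of the injured ganglion gave no called gene between the genotypes, beside 0.00700% of all tested genes. Of 18 genes of the integrated stress response, which is run by ATF4 when translation is restrained, 7 were higher and 11 lower in cKO mice, with a median of -0.02. Atf4 itself had 204 ± 4.25 and 199 ± 9.78 CPM (SD, n = 5), and Chac1, an ATF4 target that degrades glutathione, had the lowest p of the list at 0.0607, with 23.1 to 27.8 CPM in control mice and 18.7 to 29.0 CPM in cKO mice. Of 18 hypoxia-response genes 8 were higher and 10 lower. Hif1a, whose protein also pairs with ARNT, had 120.9 ± 4.74 and 120.5 ± 4.05 CPM, and Vegfa, a hypoxia-induced growth factor, had 40.3 ± 2.10 and 41.7 ± 2.07 CPM. The medians of both lists lay within 0.03 of 0.

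Clock genes were compared because the core clock proteins belong to the same bHLH-PAS family as the receptor. Of 19 genes 9 were higher and 10 lower in cKO mice and none was called. Clock had 90.7 ± 4.10 and 91.1 ± 2.46 CPM, Cry2 had 136 ± 2.67 and 138 ± 5.998 CPM, and Nr1d1 had 45.6 ± 4.11 and 46.3 ± 1.71 CPM (SD, n = 5). Npas2, which can stand in for Clock, had 2.94, 3.51, 3.32, 3.70 and 3.37 CPM in control mice and 3.57, 4.14, 4.04, 4.01 and 4.37 CPM in cKO mice. In cKO mice H64, H95, H99 and H100 it exceeded every control. The log2 fold change was 0.26 (95% interval 0.05 to 0.46), with a p of 0.0182 and an adjusted p of 1.00 in the edgeR fit.

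Immediate early genes, which respond to neuronal activity and to handling of the tissue, were lower on average in cKO mice for 9 of the 9 tested, and none was called. The median of the list was -0.17, without control H63 it was -0.10 with 3 higher and 6 lower, and Npas4 did not pass the filter on low counts. Fos had 7.08, 13.8, 8.82, 9.82 and 9.66 CPM in control mice and 6.42, 6.51, 8.62, 7.96 and 7.85 CPM in cKO mice. The groups overlapped, with control H62 inside the cKO range and control H63 the highest. Its log2 fold change was -0.40 (95% interval -0.80 to 0.01), with the lowest p of the list at 0.0545. Egr2 had 15.7 ± 3.31 and 12.6 ± 1.81 CPM, and Junb had 50.2 ± 2.43 and 49.8 ± 2.68 CPM (SD, n = 5). The same list had a median of -0.23 on the uninjured side.

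No ion channel gene of sensory neurons was called, beside 0.00700% of all tested genes. Of 21 sodium, potassium, calcium, HCN, TRP, Piezo and ligand-gated channel genes, 14 were higher and 7 lower in cKO mice, and all 21 intervals lay inside 1.5-fold, as did 97.3% of those of all genes averaging 5 CPM or more. Their fold changes ran from -0.07 (Kcna2) to 0.10 (Cacna1h). Scn10a, the sodium channel Nav1.8 of nociceptors, had 885 ± 39.6 and 893 ± 35.8 CPM, Trpv1, the heat and capsaicin receptor, had 187.7 ± 8.13 and 187.4 ± 7.46 CPM, and Piezo2, the channel of touch, had 436 ± 21.1 and 448 ± 25.5 CPM (SD, n = 5). Cacna2d1, the gabapentin-binding subunit that rises after nerve injury, had 391.7 ± 16.5 and 416 ± 25.6 CPM, and the lowest p of the list, at 0.188.

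No gene of inflammatory signals or of cell division was called, beside 0.00700% of all tested genes. Of 16 cytokine and chemokine genes 14 were tested, 5 higher and 9 lower in cKO mice, and 4 intervals lay inside 1.5-fold. The split was 4 higher and 3 lower with a mean CPM of at least 1 required, and 7 and 7 without control H96. Csf1, which injured neurons release to microglia and macrophages, had 94.9 ± 5.77 and 97.2 ± 10.8 CPM (SD, n = 5). Cxcl10, an interferon-induced chemokine, had 2.01 to 7.203 CPM in control mice and 1.66 to 2.86 CPM in cKO mice, a log2 fold change of -0.90 with an interval of -2.14 to 0.35 that leaves both directions inside it. Of 14 cell cycle genes 7 were higher and 7 lower, and the direction of their median depended on single mice. It was 0.26 without control H96 and -0.08, -0.09 and -0.08 without control H62, H63 and H65. Ube2c, a ubiquitin-conjugating enzyme of dividing cells, had 25.8 CPM in H65 and 14.1 CPM in H96 against 1.27 to 2.92 CPM in the other controls, the same 2 mice that had the most muscle transcripts.

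**Figure D4:**
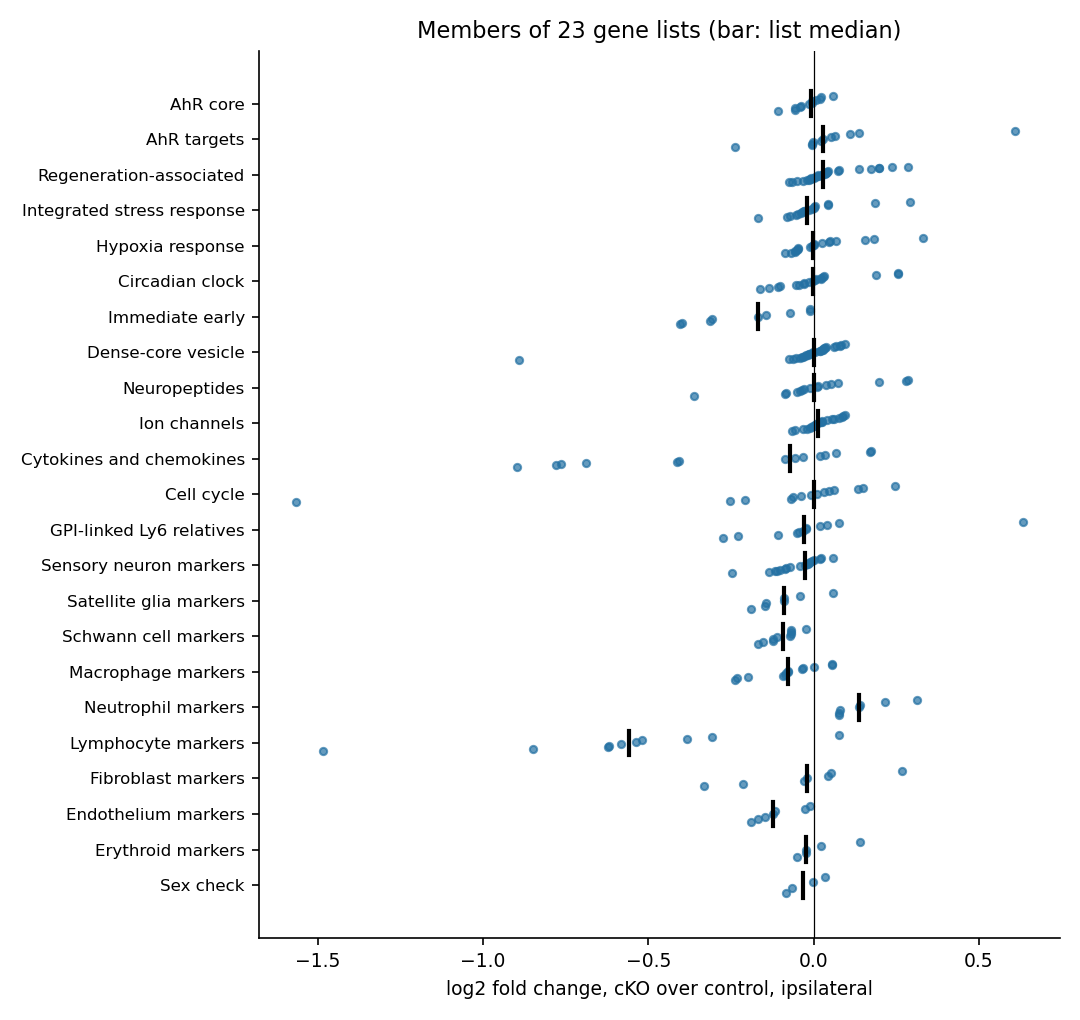
Log2 fold changes between cKO and control injured ganglia for the members of each gene list (points, 1 per tested gene) with the list's median (line). Thy1 at 0.63 and Cadps at -0.89 are the called ones, the lowest point is Ube2c at -1.57, and the list of muscle markers, from -3.42 to -1.07, is not drawn.

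Markers of the cell types in the ganglion were read to see how far the libraries matched in composition. None of the 10 lists of markers had a called member, beside 0.00700% of all tested genes. No list held a marker at 0 counts over all 10 injured-side libraries. Of 19 sensory neuron markers 4 were higher and 15 lower in cKO mice, with a median of -0.03 that became -0.01 without control H65, with 7 higher and 12 lower. The members with an unadjusted p under 0.05 numbered 3, all lower, Uchl1 (-0.12, p 0.0313), Nefl (-0.11) and Nefh (-0.14), where 1.18% of all tested genes were lower at that p. Rbfox3, the neuronal nuclear antigen NeuN, had 207 ± 5.42 and 210 ± 8.85 CPM, and Avil, a gene of sensory ganglia, had 783 ± 30.6 and 772 ± 23.4 CPM (SD, n = 5).

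Satellite glia, which wrap the neuronal cell bodies, had 6 of 7 markers lower in cKO mice, with a summed level of 1793 to 2025 CPM in control mice and 1706 to 1932 CPM in cKO mice. Apoe, their main lipoprotein, had 1056, 1056, 1034, 1099 and 941 CPM in control mice and 963, 870.5, 896, 921 and 1044 CPM in cKO mice, with control mice H65 and H97 and cKO mice H61 and H100 inside the other group's range (log2 fold change -0.14, p 0.0198, adjusted p 1.00, edgeR). Ednrb, an endothelin receptor, had a fold change of -0.19 and was the other member with an unadjusted p under 0.05, beside 1.18% of all tested genes that were lower at that p. All 10 Schwann cell markers had lower means in cKO mice, with a median of -0.09 and no p under 0.0786. Without control H96 their median was -0.03, with 2 higher and 8 lower. Their summed level overlapped, at 3969 to 5427 CPM and 3866 to 4542 CPM.

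Macrophage markers summed to 166 to 321 CPM in control mice and 207 to 341 CPM in cKO mice, with 3 of 13 higher, and their median of -0.08 was 0.02 without control H96, -0.20 without control H65 and -0.20 without cKO H100. Neutrophil markers were higher in cKO mice for 7 of 7 genes, with sums of 33.2 to 143 CPM and 48.2 to 138 CPM, and their median of 0.14 was below 0 without control H62 (-0.01) or cKO H64 (-0.18), and it was 0.44 without control H96 and 0.32 without cKO H61. Lymphocyte markers were lower for 9 of 10 genes, with a median of -0.56 and the lowest p at 0.0604 (Cd8a). With a mean CPM of at least 1 required, 3 of these markers remained, with a median of -0.31. Endothelial markers were lower for 7 of 7 genes, with a median of -0.12 and sums of 137 to 210 CPM and 150 to 191 CPM. Their median was -0.04 without control H97, with 2 higher and 5 lower, -0.06 without control H96 and -0.19 without control H65. Fibroblast markers were split, 3 higher and 4 lower. Erythroid markers were 2 higher and 3 lower, with sums of 319 to 589 CPM and 251.8 to 616 CPM. Without control H96 all 5 were higher (median 0.13), and without cKO H100 all 5 were lower (median -0.18). As a check of the stated male sex, 4 Y-linked genes and Xist together summed to 118 to 129 CPM and 115 to 128 CPM. Xist did not pass the filter on low counts. Muscle markers were lower for 10 of 10 genes, with a median of -2.36 that became -1.13 without H65 and -3.70 without cKO H100. The part of these marker levels in any result given here was not tested. For Thy1 and Cadps the fold changes without H65 and without H96 are given above.

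**Figure D5:**
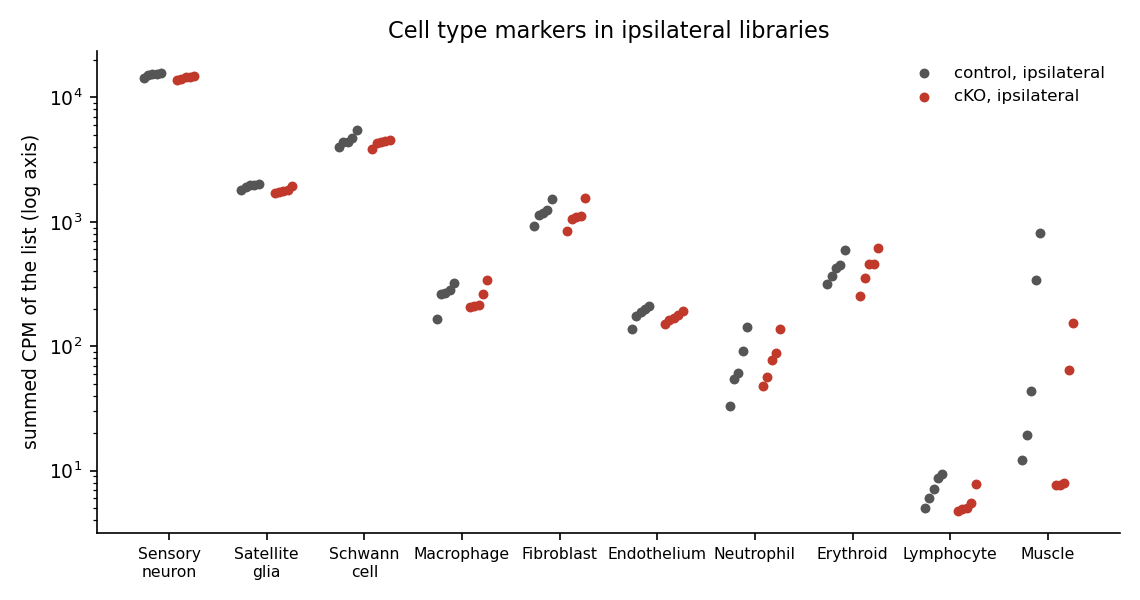
Summed CPM of the marker genes of each cell type in every injured-side library (points, 1 per mouse, log scale) for control and cKO mice. The groups overlap for every cell type shown, and the 2 highest muscle sums, 821 and 338 CPM, belong to control mice H65 and H96.

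Below the threshold of a call, genes were ranked by fold change among those whose groups did not overlap. The 11916 eligible genes had a symbol, were not predicted and averaged 5 CPM or more in the higher group. Of these, 33 had ranges that did not overlap and an unadjusted p under 0.05 (edgeR), 21 higher and 12 lower in cKO mice. Of all tested genes 171 (0.599%) had ranges that did not overlap. Such ranges give a two-sided exact permutation p of 0.00794, so some are expected by chance over this many genes. The 10 highest and 10 lowest of them, Thy1 and Cadps included, were named by this rule. The other 18 were not called (adjusted p 1.00 for each in the edgeR fit), and their values are given as a description. The filter on 5 CPM leaves out Prr18, the gene with the next smallest p after the called ones.

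The higher ones after Thy1 were Qprt (0.27), Taf1d (0.22), Lrch2 (0.19), Hspb11 (0.18), Rnf227 (0.18), Ktn1 (0.17), Celf3 (0.16), Nt5dc2 (0.15) and Hoxa5 (0.15). Qprt, which turns quinolinate from tryptophan into a precursor of NAD, had 4.92, 5.40, 5.10, 6.07 and 6.46 CPM in control mice and 6.63, 6.82, 7.01, 6.49 and 6.73 CPM in cKO mice. The gap was small, since the highest control, H97, lay just under the lowest cKO mouse, H99. Ktn1, which encodes kinectin, a membrane protein that binds kinesin, had 144.7, 149.6, 145.9, 146.4 and 137.6 CPM in control mice and 161.6, 168.7, 165.0, 157.1 and 160.8 CPM in cKO mice (log2 fold change 0.17, 95% interval 0.07 to 0.26, p 0.00157). Lrch2 had the lowest p of the 18 genes, 7.79e-04, with 7.25 ± 0.206 and 8.28 ± 0.623 CPM (SD). Just outside the named ones was Trim7, at 0.14.

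The lower ones after Cadps were Clic5 (-0.35), Shc3 (-0.28), Plce1 (-0.26), Greb1 (-0.17), Shroom4 (-0.17), Mmd2 (-0.13), Gprc5c (-0.10), Slc16a7 (-0.08) and Abi3 (-0.08). Clic5, an intracellular chloride channel protein, had 6.998, 7.602, 7.01, 7.15 and 6.78 CPM in control mice and 6.30, 5.13, 5.53, 4.96 and 5.91 CPM in cKO mice, a fold change of -0.35 (95% interval -0.58 to -0.12, p 0.00462). On the uninjured side its fold change was 0.20, and the difference between sides was -0.55 (p 0.00209, adjusted p 0.485, edgeR). Shc3, a neuronal adaptor of receptor tyrosine kinases, had 6.71 ± 0.239 and 5.53 ± 0.469 CPM, and Plce1, phospholipase C epsilon, had 59.8 ± 6.16 and 50.1 ± 3.65 CPM (SD, n = 5). Slc16a7, a transporter of lactate and pyruvate, had 26.6 ± 0.517 and 25.1 ± 0.519 CPM. The next lower gene, outside the named ones, was Atp5g1, at -0.08. The named higher genes had 17 matched promoters from 8 genes, of which 7, from 6 genes, held GCGTG. The named lower genes had 9 from 6 genes, of which 3, from 3 genes, held it, beside 32.4% of all promoters.

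The genotype difference on the injured side was last set against that on the uninjured side. There 21 genes were called (0.0735%) and 5006 had an unadjusted p under 0.05 (17.5%), against 2 and 674 on the injured side. On that side the marker lists had median log2 fold changes of 1.35 for muscle, 0.85 for fibroblasts and 0.79 for neutrophils. They were 0.47 for erythroid cells, 0.26 for macrophages, 0.17 for endothelium, 0.09 for satellite glia and 0.002 for Schwann cells. Sensory neurons had -0.03 and lymphocytes -0.45. The mitochondrial share there was 0.916% to 1.14% in control and 1.10% to 1.33% in cKO mice. The part of these in the differences there was not tested. The test of the difference between the sides called 0 genes (edgeR), its smallest adjusted p was 0.485 and 9.80% of the genes (2799) had a p under 0.05 before adjustment, so no single gene was shown to differ between sides in this fit. DESeq2 called 11 genes for that difference, and edgeR called 43 when cKO mouse H99 was left out. Of the 674 injured-side genes, 96 also had a p under 0.05 on the uninjured side, which is 14.2% of the injured-side and 1.92% of the uninjured-side list, and 48 of the 96 had the same sign on both sides.

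Apart from Thy1 and Cadps, 19 of the genes called on the uninjured side were not called on the injured side. Their injured-side fold changes lay between -0.09 (Serpina10) and 0.20 (Adamtsl1), 18 of the 19 intervals included 0, and 12 of the 19 had the same sign on both sides. Since these genes were picked for their uninjured-side values, larger values on that side are built into the choice. Vgf had -0.39 on the uninjured and 0.02 on the injured side, with a difference of 0.41 (p 4.36e-05, adjusted p 0.485, edgeR), and Jun had -0.21 and -0.01, with a difference of 0.20 (p 9.08e-04, adjusted p 0.485). Nt5dc2, at 0.47 and 0.15, was the 1 gene of the 19 whose injured-side interval lay above 0. Htr1a, a serotonin receptor, had -0.39 and -0.01, and Pde4c, a cAMP phosphodiesterase, had -0.41 and 0.04.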

How the data were processed

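RNA was extracted from ganglia of 10 mice with an RNeasy Plus Mini kit and sequenced as stranded mRNA libraries with 150 bp paired ends, per the labels' protocols. The authors deposited whole-number exonic counts per gene for each library, without normalization. HISAT2, Picard and the builds mm10 and mm39 are named in the submitters' processing notes, while the counting program, annotation release and strand setting are not given in the sources used here, so genes are given without coordinates from the count table, and promoters with those of RefSeq on GRCm38.p6. Deposited FPKM values were not used here. Symbols came from GENCODE M21 for 51487 of 78258 identifiers, with 98.1% of the counts. Without molecular identifiers, counting error is only a lower limit of the error.

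Counts of all 20 libraries were fitted together in R 4.3.3 with edgeR 4.0.16 (filterByExpr with a minimum count of 10 and total of 15, TMM scaling, 4 group means, robust quasi-likelihood F-test), and p-values were adjusted by Benjamini-Hochberg over 28564 genes. Calls needed an adjusted p under 0.05. CPM are TMM-normalised, with mean and SD. Exact permutation tests of single values were two-sided, and their smallest p is 0.00794. The steps were tested on simulated data. The comparison, the 24 gene lists and the members to be named (Ahr, called genes, called and fixed list members, the member with the lowest p of each list, neighbours and the 10 highest and lowest genes whose ranges did not overlap) were chosen with earlier results of these data known. Further genes given as examples of a list were picked with their values in view.

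The libraries of both sides of a mouse are paired by animal in the labels, and the deviations of the pair from their group means had a correlation with a median of 0.31 over 10 mice (-0.16 to 0.67). Genotype lies between mice, so mouse can be a random effect for the injured side (limma-voom, limma 3.58.1) and a fixed block for the difference between sides. The other alternatives were DESeq2 1.42.0, the 10 injured-side libraries alone, the range of mouse numbers (61 to 65 or 95 to 100) as covariate, RLE size factors, a filter on mean CPM (at least 1) or none, a test against a 2-fold change, and the omission of each of the 10 mice.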

Additional observations from a re-analysis of the deposited data

Results flagged for a closer look

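Among 168 groups of 5 values examined on the injured side, 13 had 1 mouse standing apart by the ratio of Dixon (the gap to the nearest mouse divided by the range, critical value 0.71), where chance at 1 in 20 gives 8.4. In control mice H65 stood apart as the highest for Gap43 (0.956) and Myh4 (0.715), a muscle myosin, and H96 as the highest for Abi3 (0.772). Control H97 was the lowest for Hspb1 (0.923), Uchl1 (0.742) and the summed regeneration-associated (0.795) and dense-core vesicle (0.768) lists. In cKO mice H61 was the highest for Rnf227 (0.756) and the lowest for the summed cell cycle list (0.726). H99 was the highest for Hoxa5 (0.755) and the lowest for Plce1 (0.754), and H100 was the highest for Cd8a (0.813) and the summed lymphocyte markers (0.741). Neither Thy1, Cadps nor Ahr was among these.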

How the results depend on the processing

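Thy1 and Cadps were called in 17 of 17 alternatives other than the added 2-fold threshold, under which 0 genes were called, since both changes are smaller than 2-fold. Leaving out each mouse gave 2 to 2 calls on the injured side and 0 to 43 for the difference between sides, 43 without H99. DESeq2 gave 3 and 11 calls, the third on the injured side being Prr18 (0.543 and 0.212 CPM, log2 fold change -1.35, DESeq2 adjusted p 0.0433). With the replicate block, pairing the sides by mouse, there were 2 calls on the injured side (mouse as a random effect) and 0 for the difference (fixed block, 3261 genes at an unadjusted p under 0.05). Injured-side genes at an unadjusted p under 0.05 numbered 378 of 19364 tested (1.95%) with a mean CPM of at least 1, 1878 of 56837 (3.304%) with no filter, 11 of 28564 against a 2-fold change, and 620 to 904 over the mice left out (904 without H65). Ahr ranged from -0.16 to -0.07, with adjusted p of 0.910 or more and a lowest unadjusted p of 0.0168 without H64. Of 432 recomputed list medians 47 had another sign than in the fit reported, in 13 of the 24 lists, and the largest shift outside the muscle markers was 0.32 (neutrophil markers without H64). Across 1058 values of named genes 34 uncalled fold changes switched sign. Depth limits what can be said of low genes such as the receptor target Cyp1a1, with 10 to 28 counts per library.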
